A study of Arabidopsis thaliana with 19 samples.

Results

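The 58 genes described here encode proteins of the cytosolic ribosome of Arabidopsis thaliana, 26 of the large and 32 of the small subunit, and were taken by their locus identifiers from the 33201 loci of an RNA-seq time course of root tip cells. They stand for 27 ribosomal proteins, of which 21 are represented by 2 or 3 paralogues and 6 by a single gene. The identity of each locus was checked against the RefSeq annotation of TAIR10.1, which gives 23 of them a paralogue letter. The others are named by protein and locus identifier. The seedlings carried PET111:GFP, a reporter of the mature columella, the central part of the root cap. All groups shared this genotype, the medium with sucrose and the long-day light regime, and no group was treated or mutant. Root tips were turned into protoplasts and GFP-negative cells were sorted, a mixed population that the study regards as consisting mainly of stem cells. Seedlings were sampled at 7 ages, 8 h apart, written as days of growth (D) plus hours (H). They are 4D, 4D 8H and 4D 16H on one day, 5D with 5D 8H and 5D 16H on the next, and finally 6D. There were 2 libraries each at 4D 8H and at 5D 16H and 3 at every other age, 19 in all. Each library pooled many seedlings, and the methods state one common hour of the day for all collections, although the ages differ by 8 h.

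A ribosome has a small subunit, which holds the mRNA and decodes it, and a large subunit, which forms the peptide bond and carries the tunnel through which the new chain leaves. The proteins of both subunits are needed in equal numbers, and in plants nearly every one of them is encoded by a small family of paralogous genes scattered over the chromosomes. Their transcripts are among the most abundant of dividing cells such as those of the root meristem. Promoters of plant ribosomal protein genes are known for 2 short motifs, the telo-box and site II. Site II is bound by TCP transcription factors.

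Both motifs were looked for in the 250 bases before the annotated start of each gene, on both strands. The letters searched were AAACCCTA for the telo-box and TGGGCC or TGGGCT for site II. Site II was found before 38 of the 58 genes (65.5%), against 5264 of 27443 protein-coding genes (19.2%). The telo-box was found before 10 (17.2%), against 1231 of all genes (4.49%), and 17 genes held neither. Of the 90 matches to site II, 74 lay within 100 bases of the start. The palindrome TGGGCCCA was counted on each strand, as before RPS3 (AT3G53870), RPS6B (AT5G10360) and RPS7 (AT3G02560). RPL24A and RPL24B are shown because these paralogues held no match and 5 matches to site II, RPS9 (AT5G15200) because it held both motifs, and RPL10A and RPL10C because their transcripts followed different courses. The sequences are from RefSeq (TAIR10.1) and run 5′ to 3′ on the strand of the gene up to the base before its start. Capitals mark site II or the telo-box on either strand.
RPL24A (AT2G36620), chr2:15352014-15352263, minus strand: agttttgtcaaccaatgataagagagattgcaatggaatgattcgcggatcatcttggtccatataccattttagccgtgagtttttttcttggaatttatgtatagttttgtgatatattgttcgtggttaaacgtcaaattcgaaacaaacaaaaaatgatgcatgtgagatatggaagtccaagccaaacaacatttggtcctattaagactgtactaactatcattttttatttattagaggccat
RPL24B (AT3G53020), chr3:19662026-19662275, minus strand: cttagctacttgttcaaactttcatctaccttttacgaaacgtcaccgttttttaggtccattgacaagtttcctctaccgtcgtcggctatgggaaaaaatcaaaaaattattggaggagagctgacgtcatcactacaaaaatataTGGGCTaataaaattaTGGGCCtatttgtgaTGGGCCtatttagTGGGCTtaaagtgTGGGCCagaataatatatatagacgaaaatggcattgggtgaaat
RPS9 (AT5G15200), chr5:4936430-4936679, minus strand: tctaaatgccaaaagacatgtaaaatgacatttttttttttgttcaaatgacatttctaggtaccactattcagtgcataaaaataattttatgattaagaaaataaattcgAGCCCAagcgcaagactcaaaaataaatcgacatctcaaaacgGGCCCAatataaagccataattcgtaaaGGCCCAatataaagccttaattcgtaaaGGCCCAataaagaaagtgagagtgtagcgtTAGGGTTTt
RPL10A (AT1G14320), chr1:4887864-4888113, plus strand: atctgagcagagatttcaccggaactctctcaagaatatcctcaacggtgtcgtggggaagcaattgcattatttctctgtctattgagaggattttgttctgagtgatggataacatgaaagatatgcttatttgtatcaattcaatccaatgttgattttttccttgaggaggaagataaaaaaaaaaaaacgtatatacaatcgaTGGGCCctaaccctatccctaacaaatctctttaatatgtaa
RPL10C (AT1G66580), chr1:24838840-24839089, plus strand: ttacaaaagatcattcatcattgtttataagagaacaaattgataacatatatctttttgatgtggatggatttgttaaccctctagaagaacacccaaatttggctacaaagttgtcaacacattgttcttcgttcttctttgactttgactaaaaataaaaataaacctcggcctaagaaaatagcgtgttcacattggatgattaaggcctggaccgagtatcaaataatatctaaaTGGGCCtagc
The telo-box of RPS9 (AT5G15200) is the reverse complement close to the start, and its 4 matches to site II are on the reverse strand as well. RPL10A and RPL10C each held a single site II, 37 and 5 bases before the start.

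Levels are given in FPKM, fragments per unit of transcript length and of sequencing depth. Read depth is not part of the files. By a rough estimate from the steps between low values, 5D 16H replicate 2 was the shallowest library. It listed 18854 loci above 0, against 22312 to 23919 in the others, and 2 of the 58 genes were at 0 in it. The sorted cells were checked by marker lists. The 7 meristem genes summed to 46.8 to 64.9 FPKM in a library. Of these, 6 were tested and all 6 passed the time-point test, which describes change with age and not cell content. The 3 root cap markers summed to 195 to 332 FPKM, the 6 endodermal barrier genes to 693 to 2015 FPKM and the 5 root hair genes to 299.9 to 1039 FPKM. RNA of differentiating cells was thus measured in every library.

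Ribosomal protein mRNAs were abundant at every age. The median over the 58 genes of their mean level was 134 FPKM, against 11.3 FPKM over the 18087 loci tested. 40 genes had a mean of at least 100 FPKM, 12 lay between 20 and 100 FPKM and 6 were under 20 FPKM. The highest was RPL10C (AT1G66580), with a mean of 1243 FPKM. The lowest was RPL8 (AT3G51190), which lay between 0 and 1.83 FPKM, with a mean of 0.751 FPKM. It fell under the minimum mean of 1 FPKM and was not tested, which left 57 genes. The 57 genes other than RPL10C together held between 0.685 and 1.38% of the FPKM of a library.

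Over the 7 ages these mRNAs moved together, with the highest mean at 4D 16H for 54 of the 58 genes and the lowest at 5D for 51. Among all tested loci 21.5% had their highest and 14.8% their lowest time-point mean there. The summed FPKM of the genes without RPL10C averaged 7177 at 4D, 8919 at 4D 8H, 10660.2 at 4D 16H, 6167 at 5D, 7262 at 5D 8H, 7354 at 5D 16H and 7844 at 6D. The pattern of these means was thus a climb over the first 16 h, a drop to 5D and a partial return. The 6D mean covers 9091, 9120 and 5322 FPKM in replicates 1, 2 and 3, so no library lay near it. Of the single steps, only the drop to 5D was called for most genes. The time-point F test of limma on log2(FPKM + 1) passed for 48 of 57 genes at an adjusted p under 0.05, against 29.7% of all loci. It passed for 21 of 25 tested genes of the large subunit and 27 of 32 of the small subunit. This count rested on the libraries at 4D 16H and 5D. It was 16, 27 and 17 without 4D 16H replicate 1, 2 or 3, 26 without 5D replicate 2, 26 without 5D replicate 3, and 30 of all 58 genes when no filter on low values was used.

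**Figure D1:**
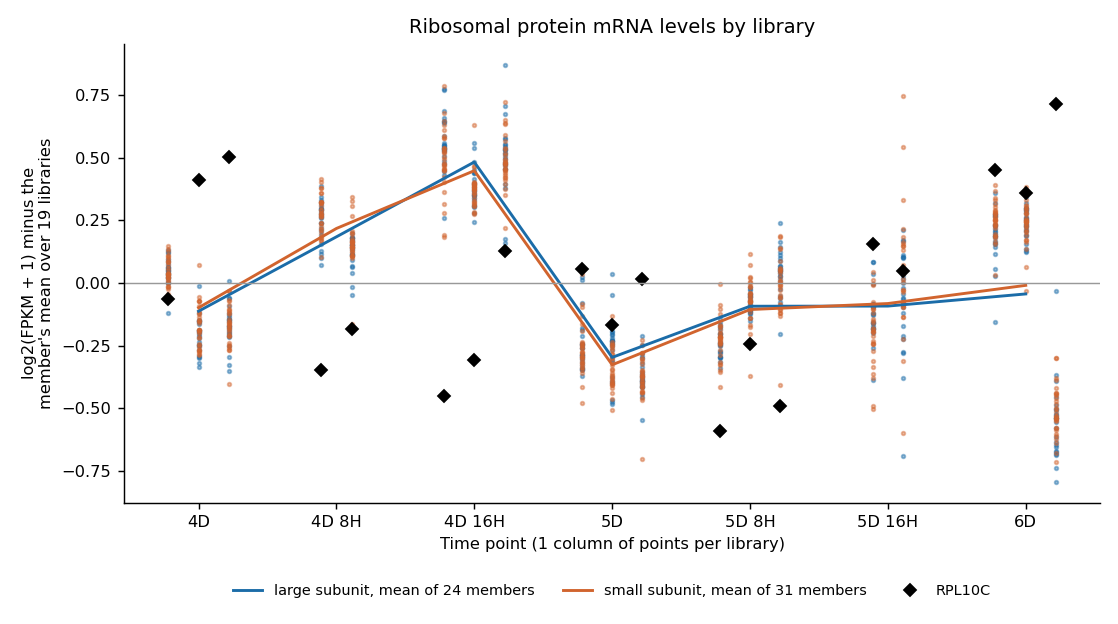
Each point is a gene in a library, as log2(FPKM + 1) minus the mean of that gene over the 19 libraries. Lines join, at each time point, the mean over libraries of 24 large subunit and of 31 small subunit genes, and diamonds are RPL10C. RPL8 (AT3G51190) and RPS9 (AT5G39850), which were at 0 in 5D 16H replicate 2, are not drawn. The lines of both subunits peak at 4D 16H and are lowest at 5D, and 6D replicate 3 lies below the other 6D libraries for every gene drawn but RPL10C.

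The 5 genes with the smallest p in this test were RPL10C, RPS10 (AT5G52650), RPS15a (AT1G07770), RPS18C (AT4G09800) and RPS28 (AT5G64140), in that order. RPL10C is described further on. RPS10 is a protein of the small subunit head. RPS10 (AT5G52650) had 114, 93.5 and 92.1 FPKM at 4D, then 133 and 114 FPKM at 4D 8H, then 147, 136 and 162 at 4D 16H. Its 5D libraries had 82.6, 80.5 and 78.3 FPKM, followed by 89.4, 92.3 and 95.7 FPKM at 5D 8H, 91.8 and 94.6 at 5D 16H and 127, 124 and 76.3 at 6D. The 4D 16H libraries lay above all others, and 6D replicate 3 was the lowest of all 19 (limma adjusted p = 0.00854). RPS15a binds the small subunit rRNA at its centre. RPS15a (AT1G07770) had 156, 138 and 146 FPKM at 4D, then 187 and 171 FPKM at 4D 8H, then 217, 198 and 217 at 4D 16H. At 5D it was at 134, 132 and 121 FPKM, followed by 145, 158 and 164 FPKM at 5D 8H, 131 and 128 at 5D 16H and 189, 207 and 129 at 6D. The 5D 16H libraries stayed near the level of 5D, while the first and second 6D libraries came close to 4D 16H (limma adjusted p = 0.00902). RPS28 sits near the exit of the mRNA channel. RPS28 (AT5G64140) had 123, 102 and 104 FPKM at 4D, then 156 and 143 FPKM at 4D 8H, then 191, 163 and 194 at 4D 16H. The 5D values were 105, 87.3 and 89.7 FPKM, followed by 93.1, 118 and 117 FPKM at 5D 8H, 124 and 157 at 5D 16H and 139.7, 146 and 84.6 at 6D. Here 5D 16H replicate 2 came close to the level of the lowest 4D 16H library, and 5D 16H replicate 1 lay well under it (limma adjusted p = 0.0104).

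From 4D 16H to 5D, 53 of 57 genes were lower at 5D and none was higher (limma adjusted p under 0.05). Among all tested loci 10.7% passed this contrast, with 7.14% lower and 3.56% higher. The median log2 fold change was -0.77 over the 57 genes, against -0.07 over all loci, and 50 of the 57 lay between -0.95 and -0.55. In 55 genes all 3 libraries at 5D were below all 3 at 4D 16H, which held for 24% of all loci. Standard errors of the 53 genes ran between 0.12 and 0.23, and their adjusted p-values between 0.00506 and 0.0346. The count stayed between 43 and 55 when any single library was left out.

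Among the genes named here, RPL24A and RPS28 (AT5G64140) fell most. RPL24 proteins sit at the subunit interface, and plant RPL24B is known for reinitiation of translation after upstream open reading frames. RPL24A (AT2G36620) had 93.7, 82.2 and 78.4 FPKM at 5D, against 197, 161 and 159.7 FPKM at 4D 16H (log2 fold change -1.01 with SE 0.17, adjusted p by limma = 0.00506). RPS28 (AT5G64140) had 105, 87.3 and 89.7 FPKM at 5D, against 191, 163 and 194 FPKM at 4D 16H (log2 fold change -0.95 with SE 0.17, adjusted p by limma = 0.00578). Every library at 5D lay under every library at 4D 16H for both genes.

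The 4 genes that did not pass were RPL10C, RPL3B, RPSaB and RPS9 (AT5G39850). RPL3B had 26.9, 22.6 and 21.5 FPKM at 5D, against 42.2, 36.5 and 30.2 FPKM at 4D 16H (log2 fold change -0.59, limma adjusted p = 0.0509). RPSaB had 6.24, 5.1 and 5.55 FPKM at 5D, against 8.63, 9.36 and 8.25 FPKM at 4D 16H (log2 fold change -0.56, limma adjusted p = 0.0522). Both pointed the same way as the rest without overlap and just missed the threshold. RPS9 (AT5G39850) had 1.93, 2.5 and 2.32 FPKM at 5D, against 2.07, 2.24 and 3.67 FPKM at 4D 16H, with overlapping groups (limma adjusted p = 0.801). RPL10C was the single gene with a positive value.

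**Figure D2:**
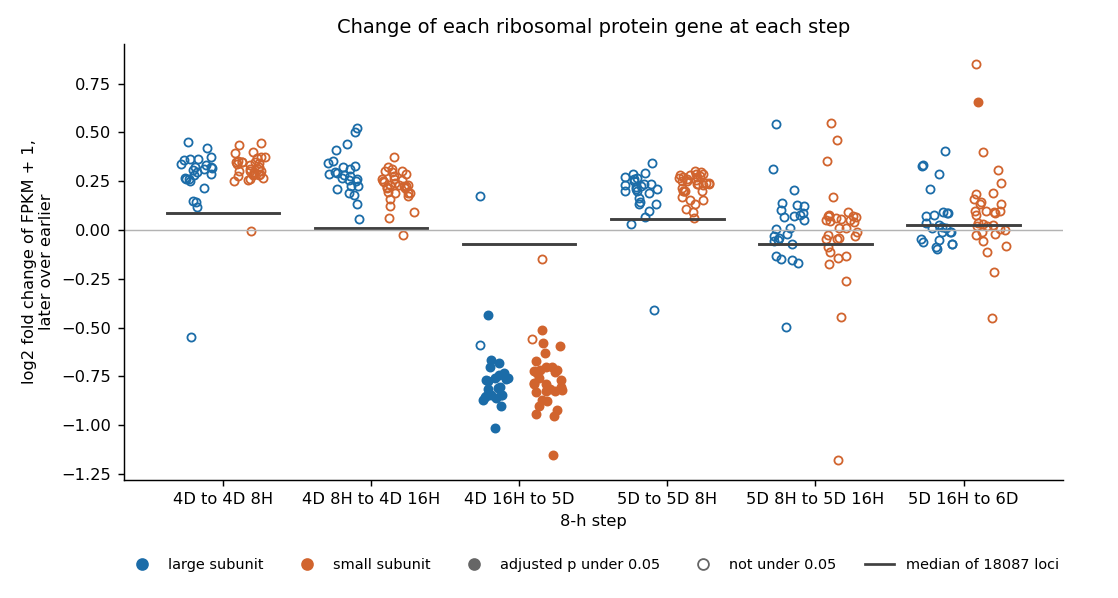
Each point is the log2 fold change of a gene over an 8-h step, later over earlier, on the log2(FPKM + 1) scale, with filled points at an adjusted p under 0.05 and bars at the median of the 18087 loci tested. Points of both subunits lie together near -0.77 at the step to 5D, where 53 are filled, and a single point, RPS18C, is filled elsewhere.

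In the large subunit, the changes from 4D 16H to 5D varied little around the median. RPL3 lies next to the peptidyl transferase centre, and its log2 fold change was -0.74 for RPL3A (limma adjusted p = 0.00821). RPL4 (AT3G09630), which lines the exit tunnel, fell by 0.77 on the log2 scale. RPL5A and RPL5B, which carry the smallest ribosomal RNA into the subunit, fell by 0.70 and 0.81. Of the RPL7 genes, AT2G01250 fell by 0.85, AT2G44120 by 0.76 and AT3G13580 by 0.73. RPL8, a protein of the peptidyl transferase region, fell by 0.80 at AT2G18020 and by 0.82 at AT4G36130. RPL13 (AT3G49010) and RPL28 (AT2G19730) fell by 0.87 and 0.90. RPL23aA and RPL23aB, paralogues of a protein at the tunnel exit, fell by 0.77 and 0.85. RPL24B fell by 0.76, less than RPL24A. RPL27aB and RPL27a (AT1G70600) both fell by 0.85, but nearly all of the RPL27aB transcript overlaps AT1G23300 on the other strand. RPP0 forms the base of the stalk that recruits elongation factors. Its genes AT3G09200, AT3G11250 and AT2G40010 fell by 0.76, 0.68 and 0.86. All genes named in this paragraph passed the test.

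The small subunit genes gave nearly the same figures. RPS3, which lies at the entry of the mRNA channel, fell by 0.63 at AT2G31610, 0.67 at AT3G53870 and 0.72 at AT5G35530. RPSaA, a protein of the small subunit back whose animal homologue is the laminin receptor, fell by 0.79. RPS4A and the RPS4 genes AT5G07090 and AT5G58420 fell by 0.70, 0.83 and 0.90. RPS6A and RPS6B encode the classical substrate of S6 kinase and fell by 0.78 and 0.77. The RPS7 genes AT5G16130, AT3G02560 and AT1G48830 fell by 0.92, 0.76 and 0.58. RPS9 (AT5G15200) fell by 0.83. RPS10 fell by 0.87 at AT5G52650, 0.73 at AT4G25740 and 0.72 at AT5G41520 (RPS10B). RPS13 (AT3G60770) and RPS13A (AT4G00100) fell by 0.81 and 0.82, RPS15a (AT1G07770) by 0.70 and RPS21 (AT3G53890) by 0.60. RPS18, which contacts tRNA in the subunit head, fell by 0.82 at RPS18A, 0.72 at AT1G34030 and 0.51 at RPS18C. Of the other RPS28 genes, AT3G10090 fell by 0.94 and AT5G03850 by 0.82. All of these genes passed the test.

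Genes of both subunits fell by similar amounts in this step. The mean log2 fold change was -0.78 ± 0.11 over 24 large subunit genes without RPL10C and -0.75 ± 0.17 over 32 small subunit genes (SD over genes), a description without a test. With RPL10C the mean of the large subunit was -0.74 ± 0.22. Within libraries, the summed FPKM of small subunit genes was 1.07 to 1.17 times that of the large subunit genes without RPL10C. By time point this ratio averaged 1.13 at 4D, 1.14 at 4D 8H, 1.11 at 4D 16H, 1.13 at 5D, 1.13 at 5D 8H, 1.11 at 5D 16H and 1.16 at 6D. Libraries of neighbouring time points overlapped in it, except that both 4D 8H libraries lay above all 4D 16H libraries and all 6D libraries lay above both 5D 16H libraries. The time course of the ratio was not tested.

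The other 8-h steps gave few calls. From 4D to 4D 8H no gene passed, against 0.133% of all loci, and 8 had an unadjusted p under 0.05 (14.4% of all loci). The median log2 fold change of the 57 genes was nevertheless 0.31, against 0.09 over all loci, and in 50 genes both 4D 8H libraries lay above all 4D libraries, against 28.5% of all loci. From 4D 8H to 4D 16H no gene passed, as no locus did, and 3 had an unadjusted p under 0.05 (4.31% of all loci). The median was 0.25, against 0.01 over all loci, and in 49 genes every 4D 16H library lay above both 4D 8H libraries, against 14.1% of all loci. Most genes thus pointed upwards in both steps without a call by limma.

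After 5D the changes were smaller. From 5D to 5D 8H no gene passed, against 0.0498% of all loci, and 1 had an unadjusted p under 0.05 (10.9% of all loci). The median log2 fold change was 0.23, against 0.06 over all loci, and in 32 genes the 5D 8H libraries lay above all 5D libraries, against 17.2% of all loci. From 5D 8H to 5D 16H no gene passed, against 6.96% of all loci, and 6 had an unadjusted p under 0.05 (25.8% of all loci), with a median of 0.01, against -0.07 over all loci. The number of genes passing after adjustment was 3 without 5D 16H replicate 1, and 1 without 4D replicate 3 or without 6D replicate 3. At 5D 16H the values rest on 2 libraries, of which replicate 2 is shallow.

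From 5D 16H to 6D a single gene passed and was higher at 6D, against 12.3% of all loci called and 5.72% called higher, and 5 had an unadjusted p under 0.05 (29.7% of all loci). This was RPS18C, a small subunit protein at the contact with tRNA. RPS18C (AT4G09800) had 111, 99.3 and 99.6 FPKM at 4D, then 138 and 118 FPKM at 4D 8H, then 119, 138 and 143 at 4D 16H. Its 5D libraries had 107, 87.7 and 85.9 FPKM, followed by 89.8, 106 and 96 FPKM at 5D 8H, 73.3 and 68.5 at 5D 16H and 132, 127 and 84.7 at 6D. Its 5D 16H libraries were the lowest of all 19 (log2 fold change 0.66, SE 0.16, limma adjusted p = 0.0186). This call was absent without 5D 16H replicate 2, 6D replicate 1 or 6D replicate 2, and when 5D 16H and 6D were fitted alone. The number of genes passing was 17 without 6D replicate 3, given without the share of all loci in that fit.

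The level at 6D depended on one library. In 6D replicate 3, 56 of the 58 genes were lower than in both other 6D libraries, with a median ratio of 0.58 to their mean, against 0.892 over all tested loci. The mean log2 level of the 57 genes other than RPL10C was the lowest of all 19 libraries there, whereas RPL10C was the highest. What set this library apart was not tested. From 4D to 6D no gene passed and none had an unadjusted p under 0.05, against 7.59% and 21.1% of all loci, with a median log2 fold change of 0.09. Without 6D replicate 3, 14 genes passed this contrast, a count given without the share of all loci in that fit.

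The last step of the day differed between days. The 16 to 24 h step was compared by the contrast of its 2 occurrences, from 5D 16H to 6D minus from 4D 16H to 5D, a comparison added after the values had been seen. It passed for 40 of 57 genes, all positive, against 16.2% of all loci, with a median difference of 0.83 on the log2 scale. The contrast contains the fall from 4D 16H to 5D, already called for 53 genes with a median of -0.77. The step from 5D 16H to 6D had a median of 0.04. The difference thus largely repeats that fall and is not a separate result. RPS18C had the largest difference among genes called, 1.17 (SE 0.22, limma adjusted p = 0.00497). RPL23aB followed with 1.14 (SE 0.23, limma adjusted p = 0.00682). For the 0 to 8 h step no gene passed, and no locus did. None of the 57 genes had an unadjusted p under 0.05 there, against 1031 of 18087 loci. For the 8 to 16 h step no gene passed, against 0.0332% of all loci. In that step 5 of the 57 genes had an unadjusted p under 0.05, against 2611 of 18087 loci. The count of 40 was 25 and 24 without 4D 16H replicate 1 or 3, 25 and 20 without 5D replicate 2 or 3, 26 and 14 without 5D 16H replicate 1 or 2, and 14 and 13 without 6D replicate 1 or 2. It was 24 of all 58 genes with no filter on low values.

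RPL10 is a late-joining protein of the large subunit near the tRNA sites, and plant RPL10A is also known as a target of an immune receptor kinase that acts against viruses. RPL10C was one of the 4 genes that did not peak at 4D 16H, the others being low-level genes (RPL8 AT3G51190, RPSaB and RPS9 AT5G39850). RPL10C (AT1G66580) had 1154, 1603 and 1708 FPKM at 4D, then 947 and 1062 FPKM at 4D 8H, then 883, 975 and 1317 at 4D 16H. At 5D it was at 1253, 1072 and 1218 FPKM, followed by 799, 1019 and 858 FPKM at 5D 8H, 1341 and 1245 at 5D 16H and 1646, 1546 and 1978 at 6D. It was lowest at 5D 8H and highest at 6D, while at 4D 16H, where nearly all others peaked, its libraries lay below the higher 4D libraries (time-point F test, limma adjusted p = 0.00648). From 4D to 4D 8H its log2 fold change was -0.55 (SE 0.18, limma adjusted p = 0.183), and both 4D 8H libraries lay under all 4D libraries. From 4D 16H to 5D it was 0.18 (SE 0.16, limma adjusted p = 0.519), with overlapping groups. No single step of RPL10C passed the test.

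RPL10A followed the other genes. RPL10A (AT1G14320) had 343, 282 and 302 FPKM at 4D, then 367 and 350.0 FPKM at 4D 8H, then 425, 389 and 414 at 4D 16H. The 5D values were 257, 257 and 259 FPKM, followed by 266, 289 and 315 FPKM at 5D 8H, 295 and 321 at 5D 16H and 362, 343 and 229 at 6D. The libraries at 5D were nearly equal and lay below every 4D 16H library (log2 fold change -0.66 with SE 0.13, adjusted p by limma = 0.00773). RPL10B was the low paralogue, between 21.0 and 34.6 FPKM. It had 28.4, 23 and 21 FPKM at 5D, against 33.6, 33.3 and 31.3 FPKM at 4D 16H, the smallest fall among the genes called (log2 fold change -0.44 with SE 0.12, adjusted p by limma = 0.0318).

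**Figure D3:**
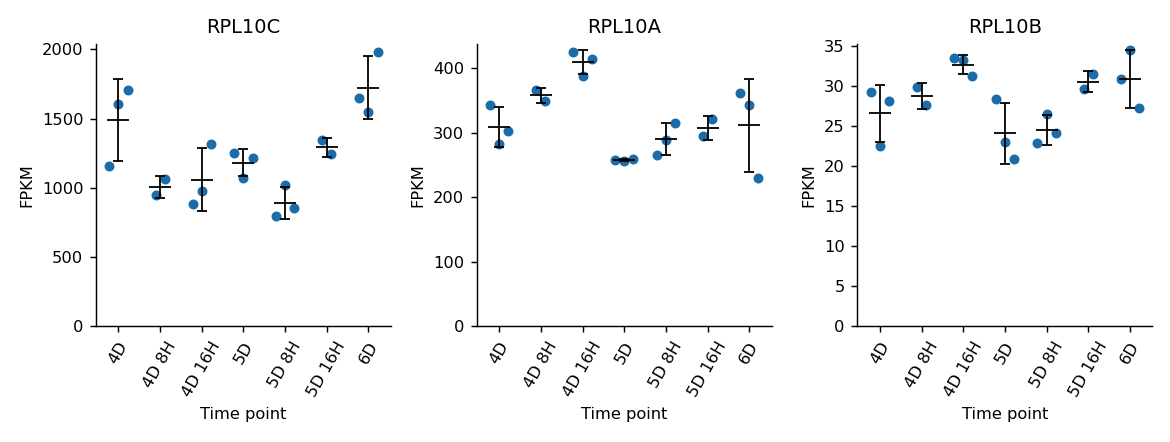
FPKM of RPL10C, RPL10A and RPL10B by time point, with 1 point per library and the mean ± SD (n = 3, or 2 at 4D 8H and 5D 16H). RPL10A and RPL10B are highest at 4D 16H, whereas RPL10C is lowest at 5D 8H and reaches 1978 FPKM in 6D replicate 3.

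The proteins encoded by paralogues were alike, with a median identity of 92.1% over 41 pairs, and between 59.4% for RPSa and 100% for RPS18 and for the RPS28 genes AT3G10090 and AT5G03850. Their coding sequences were 68.2 to 92.7% identical, and the longest identical stretch, between RPL10A and RPL10C, had 98 bases. No identical stretch of 100 bases, the length of a read, was shared between 2 of the 58 genes. Only exact matches were searched. Reads that match 2 paralogues with few mismatches, as RPL10A and RPL10C may give, are not covered. For 55 genes at least 97% of such stretches were found in no other transcript. The exceptions overlapped genes on the other strand, namely RPL27aB with 1.96% unique, RPP0 (AT2G40010) with 66.2% and RPL8 (AT4G36130) with 82.8%. The labels name a stranded kit, but whether strand was used in counting is not given in the sources used here, so these 3 levels may contain reads of their neighbours.

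The pool of each protein was divided between its paralogues in very different ways. In 5 of the 21 proteins 1 gene held at least 90% of the summed FPKM of the listed paralogues. They include RPS9 (98.9% from AT5G15200), RPSa (96.5% from RPSaA), RPL3 (90.4% from RPL3A) and RPP0 (90.1% from AT3G09200). In 6 proteins the highest share was between 60 and 90%. Among them, RPL10C held 77.3% of RPL10, AT2G18020 73.8% of RPL8, AT2G01250 72.2% of RPL7, AT1G70600 64.2% of RPL27a and RPL24B 61.3% of RPL24. The other 10 proteins were shared more evenly, down to RPS4, where the highest gene, AT5G58420, held 34.7%. Between these, RPL5A held 57.9% of RPL5, AT5G03850 57.1% of RPS28, RPS6A 56.2% of RPS6 and RPS13A 53.6% of RPS13. RPS10B held 52.1% of RPS10, RPL23aA 51.6% of RPL23a, AT5G16130 45.6% of RPS7, AT3G53870 38.4% of RPS3 and RPS18A 36% of RPS18. Shares are means over 19 libraries.

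**Figure D4:**
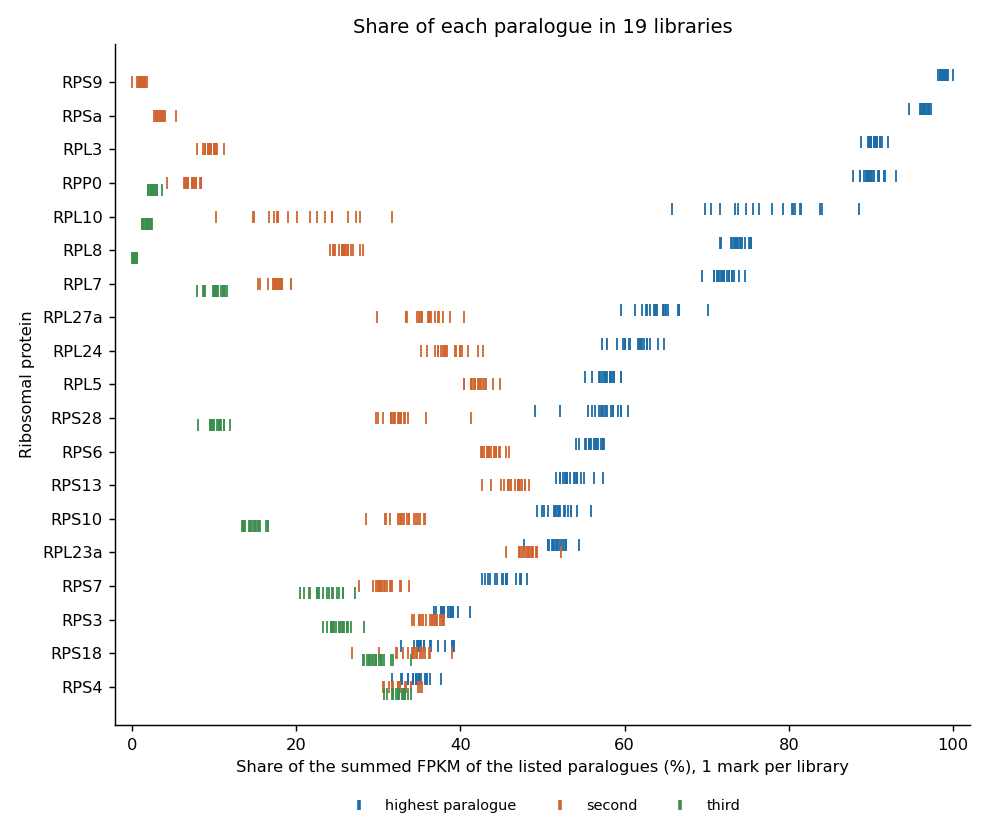
Share of each paralogue in the summed FPKM of the listed paralogues of its protein, with 1 mark per library, for 19 of the 21 proteins. The marks of RPS9 and RPSa lie near the ends of the axis in all libraries, those of RPL10 spread widest, with 65.8 to 88.5% for RPL10C, and those of RPS4 and RPS18 overlap.

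The order of paralogues hardly changed. Of 31 neighbouring pairs in the order of their mean levels, 25 kept their order in all 19 libraries, and 7 differed over 5-fold in the mean. The RPL8 genes AT4G36130 and AT3G51190 were 109-fold apart in their means. The 6 pairs whose order was not the same in all libraries were under 1.2-fold apart. RPL23aA was above RPL23aB in 18 of 19 libraries, RPS3 (AT3G53870) above AT2G31610 in 16, and RPS4 (AT5G58420) above RPS4A in 15. RPS4A was above RPS4 (AT5G07090) in 9 of 19, RPS18A above RPS18C in 14 and RPS18C above RPS18 (AT1G34030) in 17. The order of RPS4A and RPS4 (AT5G07090) was thus even over libraries, and the other 5 pairs kept one order in most of them, without a test.

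To ask whether the make-up of a pool moved with age, the log2 ratio of each gene to the sum of its listed paralogues was tested over the 7 time points by a permutation test of the F statistic with 100000 draws. With 1 FPKM added to both levels, a ratio within a library depends little on how that library was scaled, except for genes of a few FPKM. Of 41 ratios, 14 had an unadjusted p under 0.05, and 7 passed after Benjamini-Hochberg adjustment over the 41. They belonged to the RPS7 genes AT1G48830, AT5G16130 and AT3G02560, RPP0 (AT3G09200), RPL10A, RPL10C and RPS18A. Ratios of the same protein are made from the same values, so those of RPS7, and those of RPL10, are not independent results. All 7 lay just inside the threshold. The count was 19 without 5D 16H replicate 1, 4 without 4D replicate 1, 2 without 4D 16H replicate 2, 1 without 4D 16H replicate 1, 5D 8H replicate 1 or 5D 8H replicate 3, and 0 without any one of the other 13 libraries. The values that follow are thus given as a description.

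The ratios moved little. The time-point means of 24 of the 41 ratios spanned less than 0.3 on the log2 scale and those of 7 spanned more than 0.5, with a median span of 0.24. Among the ratios that passed, those of RPL10A and RPL10C spanned most, and the mean log2 ratio of RPL10C to the other RPL10 genes was lowest at 4D 16H, 1.24, and highest at 6D, 2.35 (permutation p = 0.00718). As a share, RPL10C made up 81.1% at 4D, 72.1% at 4D 8H, 70.1% at 4D 16H, 80.7% at 5D, 73.8% at 5D 8H, 79.2% at 5D 16H and 83.2% at 6D. It was thus least dominant when the other ribosomal protein mRNAs were highest. RPL10B held a mean share of only 1.82%, so the share of RPL10A had to move against that of RPL10C. It was 17.4% at 4D, 25.8% at 4D 8H, 27.7% at 4D 16H, 17.7% at 5D, 24.1% at 5D 8H, 18.9% at 5D 16H and 15.3% at 6D.

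RPS7, a small subunit protein, had 3 listed genes of which AT1G48830 is the most distant, with 77.5% and 77.0% identity to AT3G02560 and AT5G16130. RPS7 (AT1G48830) had 78.1, 70.7 and 65.2 FPKM at 4D, then 96.9 and 83.5 FPKM at 4D 8H, then 96, 94.4 and 104 at 4D 16H. Its 5D libraries had 70.1, 63.1 and 62.5 FPKM, followed by 74, 74.7 and 68.9 FPKM at 5D 8H, 66.9 and 69.4 at 5D 16H and 76, 77.8 and 44.9 at 6D. Its 4D 16H level was close to that of 4D 8H replicate 1. RPS7 (AT5G16130) had 147, 121 and 121 FPKM at 4D, then 179.9 and 160.5 FPKM at 4D 8H, then 215, 198 and 217 at 4D 16H. At 5D it was at 117, 109 and 106 FPKM, followed by 123, 136 and 143 FPKM at 5D 8H, 122 and 145 at 5D 16H and 174, 176 and 94.1 at 6D. All its 4D 16H libraries lay above every other library. RPS7 (AT3G02560) had 100.4, 87.9 and 94.8 FPKM at 4D, then 119 and 107 FPKM at 4D 8H, then 135, 126 and 138 at 4D 16H. The 5D values were 86.5, 73.9 and 74.7 FPKM, followed by 75.5, 87.8 and 90 FPKM at 5D 8H, 85.2 and 91.8 at 5D 16H and 122, 117 and 67.4 at 6D. All 3 genes were highest at 4D 16H in the mean. Within the pool AT1G48830 made up 24.2% at 4D, 24.1% at 4D 8H, 22.2% at 4D 16H, 25.7% at 5D, 25% at 5D 8H, 23.5% at 5D 16H and 21.1% at 6D (permutation p = 0.00355). Its share was lowest at 4D 16H and 6D, where AT5G16130, the highest RPS7 gene, was at 47.6% and 46.6% (permutation p = 0.00534). AT3G02560 lay between 27.7 and 33.8% in all libraries (permutation p = 0.00604). For the stalk protein RPP0 the leading gene was followed. RPP0 (AT3G09200) had 231, 194 and 200.3 FPKM at 4D, then 279 and 241 FPKM at 4D 8H, then 333, 295 and 317 at 4D 16H. Its 5D libraries had 182, 198 and 175 FPKM, followed by 201, 223 and 249 FPKM at 5D 8H, 201 and 237 at 5D 16H and 271, 288 and 161 at 6D. As a share of RPP0 it lay between 87.9 and 93% (permutation p = 0.00628). Its highest time-point mean was 92% at 5D 16H and its lowest 88.9% at 4D 16H. RPS18A lay between 32.7 and 39.3% and was also highest at 5D 16H (permutation p = 0.00729).

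The change from 4D 16H to 5D was also set beside the promoter motifs. The median log2 fold change was -0.76 over 37 tested genes with site II, of which 35 passed, and -0.82 over 20 without, of which 18 passed. Values ran from -0.92 to 0.18 with site II and from -1.16 to -0.15 without. The median was -0.85 over 9 tested genes with a telo-box, all of which passed, and -0.76 over 48 without, of which 44 passed. Values ran from -1.16 to -0.73 with a telo-box and from -1.01 to 0.18 without. These are descriptions without a test. RPL24A, shown above with no match, fell by 1.01 on the log2 scale, and RPL24B, with 5 matches, by 0.76. RPL10C held a site II and did not fall.

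Other genes of the ribosome behaved alike. Of the cytosolic ribosomal protein genes outside the 58, 94 of 95 tested large subunit genes were lower at 5D than at 4D 16H. So were 51 of 55 tested small subunit genes, against 7.14% of all loci. The median log2 fold changes were -0.83 and -0.82. The genes of these lists with the smallest p in the time-point test were AT1G07070, AT5G02610 and AT3G16080 for the large subunit and AT5G15520, AT5G59850 and AT3G11510 for the small. AT3G16080 had 75.2 ± 8.71 FPKM at 5D, against 159 ± 21.8 FPKM at 4D 16H (SD, n = 3 each; limma adjusted p = 0.00494). RACK1, a scaffold on the small subunit head, was lower in all 3 genes, with a median of -1.11. RACK1B (AT1G48630) had 39.5 ± 4.19 FPKM at 5D, against 86.3 ± 6.07 FPKM at 4D 16H (SD, n = 3 each; limma adjusted p = 0.00533).

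Other translation genes moved less. Of 14 elongation factor genes 5 were lower at 5D (35.7%, against 7.14% of all loci), with a median of -0.34. AT5G19510 fell most among them, by 0.71 (limma adjusted p = 0.0113). AT1G69410 (ELF5A-3) had the smallest p of this list in the time-point test (limma adjusted p = 0.00406). Of 29 nuclear genes for plastid ribosomal proteins 1 was lower, AT5G40950 (3.45%, against 7.14% of all loci). The median of this list was -0.15. The TOR and S6 kinase pathway is known to raise ribosome production. None of its 5 listed genes passed this contrast, against 10.7% of all loci. None had an unadjusted p under 0.05, against 5064 of 18087 loci, and the median was 0.02. With so few genes these counts carry little weight. The difference between these lists and the ribosomal protein genes was not tested.

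**Figure D5:**
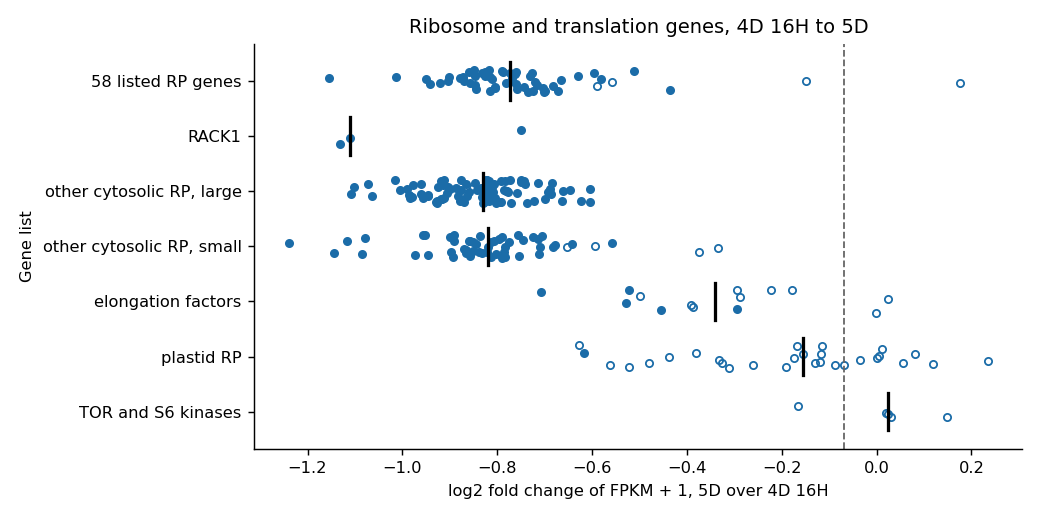
Change between 4D 16H and 5D, later over earlier, on the log2(FPKM + 1) scale for the 57 tested genes of the 58 and for 6 other lists, with filled points at an adjusted p under 0.05, black bars at list medians and a dashed line at the median of all loci, -0.07. Cytosolic ribosomal protein genes and RACK1 lie left of most elongation factor, plastid ribosomal protein and kinase genes.

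Markers of single cell types also moved in this step. Among all tested loci 7.14% were lower and 3.56% higher. Of 3 root cap genes 2 were lower at 5D, and the list summed to 195 to 228 FPKM in 5D libraries, against 269 to 310 FPKM in 4D 16H libraries. Of 6 endodermal barrier genes 1 was called higher, CASP5. In 5 of the 6 all 5D libraries lay above all 4D 16H libraries, against 2221 of 18087 loci. The median log2 fold change of this list was 0.61. It summed to 1453 to 2015 FPKM at 5D, against 953 to 1171 FPKM at 4D 16H. Of 6 tested meristem genes 2 were lower, PLT1 and PLT2, and 1 was higher, WOX5. WOX5 had 7.49 ± 1.46 FPKM at 5D, against 2 ± 0.784 FPKM at 4D 16H (SD, n = 3 each; limma adjusted p = 0.00561). No gene of the root hair, xylem vessel and cell division lists passed. Of these 12 genes 1 had an unadjusted p under 0.05, against 5064 of 18087 loci. The 4 cell division genes summed to 29 to 31.2 FPKM at 5D, against 35.3 to 43.9 FPKM at 4D 16H. No marker was at 0 in all libraries of a time point. Their part in the fall of ribosomal protein mRNAs was not tested, and in sorted bulk cells fewer cells with high levels and less mRNA per cell cannot be told apart.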

How the data were processed

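Expression was measured by RNA-seq in 19 libraries of PET111:GFP-negative root tip cells. The authors deposited FPKM per locus in one table. Submitters' processing notes name TopHat, Cufflinks and TAIR10, and the study's methods name Bowtie, the Tuxedo tools and Rsubread. Their versions, and the use of strand in counting, are not given in the sources used here. FPKM carry no read depth, so no count test was run. Low values came out as whole multiples of a read too rarely to recover counts.

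Of 33201 loci, the 18087 whose average reached 1 FPKM were tested on log2(FPKM + 1) by limma (version 3.58.1, R 4.3.3), with 1 mean per time point over all 19 libraries, a trended prior and Benjamini-Hochberg adjustment over all tested loci at 0.05. The added 1 understates changes of low genes. Time points were compared by an F test, by each 8-h step and by 4D to 6D. Ratios between paralogues were tested by 100000 permutations. The fit was tested on simulated data with 200 changed loci, where the F test recovered 95.5% and the contrast from 4D 16H to 5D 92%. Libraries of one age are called biological replicates of pooled seedlings, with no statement on separate cultures, so p-values measure the spread between these libraries. Alternatives were another pseudocount, no filter, a stricter filter of 5 FPKM, quantile and upper-quartile scaling, sample weights, a replicate block, a fit of only the ages compared and leaving out each library.

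The 58 genes and all lists were chosen with earlier results of these data known. Values per library are given for the 5 genes with the smallest F test p, the 3 largest rises and 3 largest falls among genes called in a contrast, the highest and lowest gene, and up to 6 ratios past the threshold. For other lists up to 3 genes with the smallest F test p are named, and further genes named were chosen after their values were seen. Promoters, proteins and transcripts were read from the RefSeq annotation of TAIR10.1 in Python 3.11.15. Some of the 58 genes are counted in all totals but are not reported here by name.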

Additional observations from a re-analysis of the deposited data

Results flagged for a closer look

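The step between 16 and 24 h of a day differed between the days, as tested by the contrast of 5D 16H to 6D minus 4D 16H to 5D. It passed for 40 of 57 ribosomal protein genes (limma, adjusted p under 0.05), against 16.2% of all loci. All 40 differences were positive, and the median over the 57 genes was 0.83 on the log2 scale. The comparison was added after the values had been seen. It contains the fall from 4D 16H to 5D, already called for 53 genes, and largely repeats it. Over the fits that each left out a library the count lay between 13 and 54. The day 5 step rests on 2 libraries at 5D 16H, of which replicate 2 is shallow, and on 6D libraries of which replicate 3 lies apart.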

How the results depend on the processing

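With no filter on low values, which brings in all 58 genes, the F test over time points called 30, against 16.7% of all loci. The difference between days of the 16 to 24 h step passed for 24 in that fit. From 5D 8H to 5D 16H 1 gene passed with quantile scaling (6.06% of all loci) and 1 with a replicate block (8.81%). From 5D 16H to 6D 2 passed with quantile scaling (12.1% of all loci), 0 with sample weights and 0 in a fit of these ages alone. From 4D to 6D 1 passed with sample weights. With 5D 16H replicate 2 and 6D replicate 3 both left out, an alternative chosen after seeing the data, 8 passed from 5D 16H to 6D, 22 from 4D to 6D and 0 of the paralogue ratios. Leaving out each library in turn gave 16 to 55 genes in the F test, 43 to 55 from 4D 16H to 5D, 0 to 3 from 5D 8H to 5D 16H, 0 to 17 from 5D 16H to 6D, 0 to 14 from 4D to 6D, 13 to 54 for the difference between days and 0 to 19 paralogue ratios. For the fits that left out libraries the shares of all loci are not given here. Whether these counts moved more than those of other loci thus cannot be read from them. The cause of these changes was not tested. Of the single-gene results, 539 kept their side of the threshold and 21 lost it under the other settings, against 995 and 164 when a library was left out, and none reversed.

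Equal replicate numbers did not mark paired libraries: over 52 pairs their deviations from the group means had a mean correlation of 0.00968, and 8 of 19 libraries correlated best with their own number. With the replicate block 43 genes passed the F test (28.5% of all loci) and 54 the contrast from 4D 16H to 5D (10.9%). The difference between days passed for 40 genes, and 0 paralogue ratios passed. The read depth behind these FPKM is unknown.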
